A study of Rattus norvegicus with 23 samples.

Results

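Kupffer cells (KCs) grown alone for 3 days were set against hepatocytes grown alone for 12 days, gene by gene, in a rat liver culture study that also profiled layered 3D co-cultures. The members of the comparison were 6 of the 23 arrays of the series, 3 of KCs sampled before they entered the 3DHLK model (KC monolayers below) and 3 of hepatocyte monolayers (HM), and 13747 autosomal genes of the 14217 genes that a probe set named. The 3DHLK model holds hepatocytes, liver sinusoidal endothelial cells (LSECs) and KCs. The KCs were bought as cryopreserved rat cells and kept in a serum-containing medium of their own, and the sources used here state neither the sex nor the strain of their donors. The hepatocytes were isolated freshly by collagenase perfusion of female Lewis rats and kept on collagen-coated plates. The paper states from earlier work that such monolayers soon lose their morphology, and liver functions such as P450 activity and cholesterol metabolism. No allele, drug or transgene is given for either group. Cell type, day of culture, donor source and medium differ together between both groups and cannot be told apart, so a difference below is a difference between these cultures. The labels do not say that the 3 arrays of a group came from separate animals or lots, and p-values measure only the spread between these arrays.

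KCs are macrophages that live in the liver sinusoid, attached to its endothelium. They bind and engulf bacteria, debris and ageing red cells through scavenger, complement and Fc receptors, recycle the iron, and release cytokines when pattern receptors are engaged. Hepatocytes are polarised epithelial cells that secrete most plasma proteins, make lipoproteins and bile, dispose of ammonia as urea, store and release glucose, and oxidise and conjugate foreign compounds.

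Values were the deposited log2 RMA signals, on which a difference of 1 is a 2-fold change, and the highest value on any of the 6 arrays was between 14.64 and 14.81. The files hold no detection call, so values low on this scale have no known distance from background, and differences against them are given as measured. Array medians lay between 7.41 and 7.46 for KC monolayers and between 7.48 and 7.50 for HM. The KC arrays were less alike than the HM arrays. Pairs of KC arrays correlated at 0.942 to 0.969 over all probe sets with a median absolute difference of 0.293 to 0.501, and HM pairs at 0.992 to 0.998 with 0.0796 to 0.129. The interquartile range of the values was narrower on the KC arrays (2.90, 2.35 and 2.58) than on the HM arrays (3.24 to 3.30). The median SD of a gene was 0.317 over the KC arrays and 0.0899 over the HM arrays, and the KC SD was the larger for 90.3% of genes.

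Of the 13747 autosomal genes, 7771 (56.5%) passed the test at an adjusted p of 0.05 (limma on the 6 arrays, two-sided, Benjamini-Hochberg over all genes tested). Of all genes, 2612 (19%) were higher in KC monolayers and 5159 (37.5%) were lower, and 5976 did not pass. Differences of at least 2 log2 units were found for 479 genes (3.48%) on the higher side and for 1017 genes (7.4%) on the lower side, and of at least 4 units for 136 and 222 genes. The median difference over all autosomal genes was -0.22, with quartiles at -0.90 and 0.37. The split between directions moved with the scaling, since higher genes were 33.6% of those called on the deposited values, 49.5% after cyclic loess, which brought the median to about 0, and 37.7% after centring on housekeeping genes. Small differences are therefore best read against the median of -0.22. No overlap between the KC and HM arrays was found for 9146 genes (66.5%), with the KC arrays above in 23.9% and below in 42.6% of all genes, and 99.2% of the called genes were among those without overlap.

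**Figure D1:**
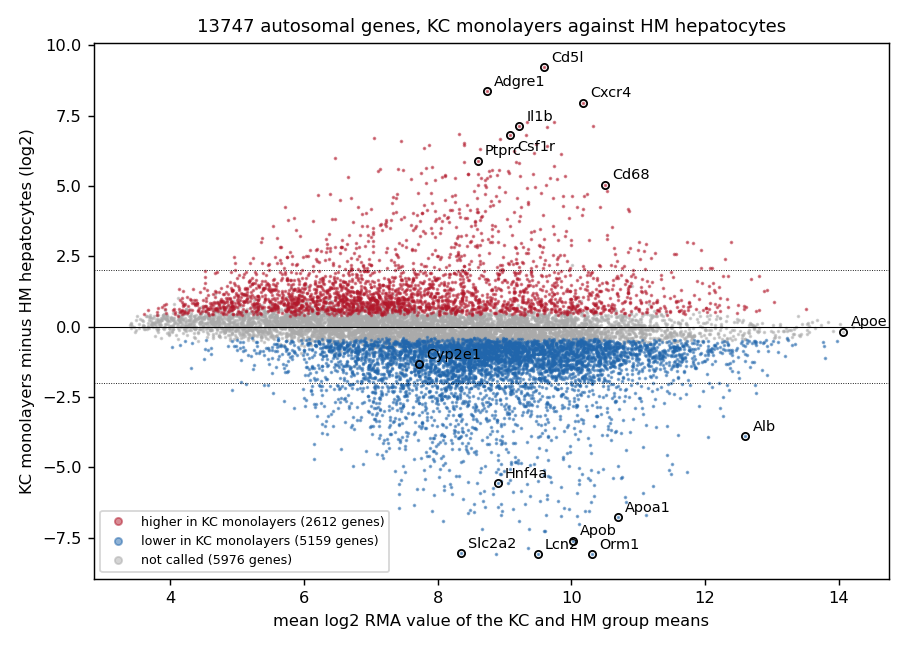
Difference of KC monolayers minus HM hepatocytes (log2, vertical) against the mean level of the 2 groups (log2 RMA, horizontal) for each of 13747 autosomal genes; red points are higher and blue points lower in KC monolayers at an adjusted p of 0.05, grey points are not called, and dotted lines mark differences of 2. The called genes number 2612 above and 5159 below, and the extremes are macrophage genes such as Cd5l (9.23) and secreted hepatocyte products such as Orm1 (-8.09).

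The cell type named by each label was checked against lists of marker genes. All 19 measured macrophage markers were higher in KC monolayers, with a median difference of 5.43. Their mean level was 12.33, 12.12 and 12.30 on the KC arrays, against 6.49, 7.14 and 6.63 on the HM arrays. Of 30 hepatocyte markers, 28 were lower in KC monolayers and 2, Apoa2 and Fabp1, were not called, with a median of -5.35. Their mean level was 7.61, 7.07 and 7.70 on the KC arrays, against 12.35, 12.31 and 12.32 on the HM arrays. The labels of both groups thus fitted the markers, and the macrophage transcription factor Spi1, a defining gene, had no probe set that names it.

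Adgre1, the F4/80 antigen of rodent macrophages, stood at 12.998, 12.84 and 12.90 on the KC arrays, against 4.53, 4.65 and 4.47 on the HM arrays, a difference of 8.37 ± 0.15 (SE, adjusted p = 9.5e-09). Cd68, a macrophage endosomal glycoprotein, stood at 13.33, 12.81 and 12.93 in KC monolayers, against 7.79, 8.20 and 7.91 in HM (5.05 ± 0.20). Cd163, the receptor that takes up haemoglobin bound to haptoglobin, stood at 11.06, 10.29 and 10.54 in KC monolayers, against 6.34, 6.93 and 6.39 in HM (4.08 ± 0.24). None of these receptors overlapped between the groups, and neither did 66.5% of all genes. On the hepatocyte side, Ttr, the thyroid hormone and retinol carrier transthyretin, stood at 9.28, 8.29 and 9.05 in KC monolayers, against 14.15, 14.04 and 14.12 in HM (-5.23 ± 0.25). Hnf4a, the nuclear receptor that maintains hepatocyte identity, stood at 5.52, 6.31 and 6.54 in KC monolayers, against 11.70, 11.65 and 11.68 in HM (-5.55 ± 0.25). Alb, serum albumin, differed less and varied more among KC arrays, with 11.18, 9.33 and 11.45 in KC monolayers, against 14.54, 14.57 and 14.54 in HM (-3.90 ± 0.47, adjusted p = 0.00015). The HM values of Alb lay close to the top of the range of the arrays, and its KC values were well above the array median. Cyp2e1, the ethanol-oxidising P450, was lower by a small margin, at 7.37, 6.62 and 7.15 in KC monolayers against 8.34, 8.39 and 8.42 in HM (-1.34 ± 0.21).

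Single arrays stood apart from the rest of their group for several lists. KC array 2 was the lowest KC array for 20 of 30 hepatocyte markers (66.7%, against 44.2% of all genes), and for 15 of 19 macrophage markers. It was also the lowest for 18 of 20 housekeeping genes (90%), 44 of 49 respiratory chain genes (89.8%) and 23 of 30 ribosomal proteins (76.7%). This order was thus not particular to cell type markers. KC array 1 was the highest KC array for 51.6% of all genes, 48 of 49 respiratory chain genes (98%) and 26 of 30 ribosomal proteins (86.7%). Its pairs with KC arrays 2 and 3 correlated at 0.942 and 0.963, against 0.969 for the pair without it. KC array 2 was the highest KC array for 8 of 9 B and plasma cell markers (88.9%) and 12 of 16 granulocyte and mast cell markers (75%). It was also the highest for 8 of 11 cholangiocyte markers (72.7%) and 17 of 33 epithelial keratins and junctions (51.5%). Over all genes the share was 31.2%, so this was not particular to leukocyte markers, and erythroid and platelet markers did not share it (3 of 10). The interquartile range of KC array 2 was the narrowest (2.35), and the part of that range in this order was not tested. In these bulk RNA samples, fewer cells of a type and less RNA per cell cannot be told apart, and the part of residual hepatocyte RNA in the KC values was not tested. HM array 2 was the highest HM array for 20 of 23 stellate cell and fibroblast markers (87%) and for 16 of 19 macrophage markers (84.2%), against 38.5% of all genes. Col3a1, a fibrillar collagen, shows this split, with 9.54, 8.78 and 9.45 on the KC arrays and 6.08, 11.69 and 9.10 on the HM arrays. Mgp, matrix Gla protein, had 6.88, 7.06 and 6.19 on the KC arrays, against 5.15, 10.94 and 8.67 on the HM arrays, the largest SD of any gene in HM. Fcer1g, the signalling chain of Fc receptors, was highest on the same HM array (8.04, against 5.98 and 6.23 on the others). Without HM array 2 the counts were 2004 higher and 4264 lower, near those without HM array 1 (1973 and 4311) or 3 (1934 and 4154). Leaving out KC array 1 gave 3318 higher and 6092 lower, against 2743 and 5272 without KC array 2 and 2307 and 4498 without KC array 3. All 19 macrophage markers stayed higher whichever array was left out.

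**Figure D2:**
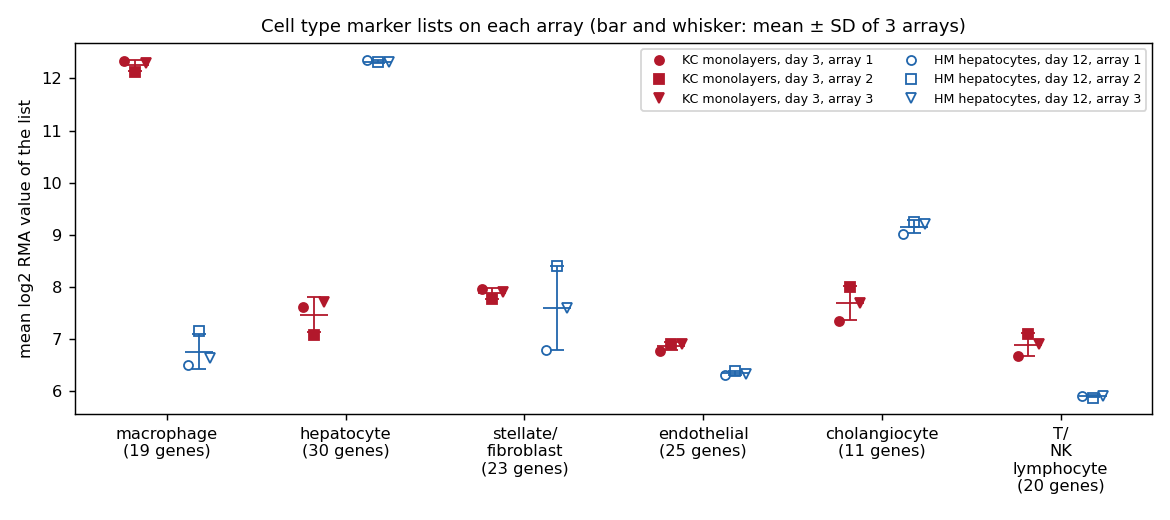
Mean log2 RMA value of 6 marker lists (vertical) on each array, with KC monolayers in filled red and HM hepatocytes in open blue symbols; bars and whiskers are the mean and SD of 3 arrays. The stellate and fibroblast list runs from 6.79 to 8.39 among the HM arrays and overlaps the KC range of 7.76 to 7.96. Every other list separates the groups completely, by far the most for the macrophage and hepatocyte lists.

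The 15 largest rises held many genes of the macrophage surface and of leukocyte signalling. Cd5l, a scavenger receptor family protein that macrophages secrete, led with 14.22, 14.15 and 14.25 on the KC arrays against 4.90, 5.10 and 4.93 on the HM arrays (9.23 ± 0.15). Cxcr4, the receptor of the chemokine Cxcl12, stood at 14.10, 14.17 and 14.21 in KC monolayers against 6.24, 6.26 and 6.06 in HM (7.97 ± 0.15). Il1b, the pyrogenic cytokine interleukin-1 beta, stood at 12.96, 12.67 and 12.70 in KC monolayers against 5.74, 5.57 and 5.66 in HM (7.12 ± 0.16). These genes were chosen for the size of their rise, so their separation between the groups follows from the choice. The rest of the 15 largest rises lay between 6.53 and 8.37 and held Adgre1, Aif1 (an actin-bundling protein of macrophages), Ifitm1, Fcer1g, Gngt2, Clec7a (the beta-glucan receptor dectin-1), Kctd12, Csf1r (the receptor that macrophages need for survival), Siglec5, Rgs1, Cd53 and Ptpro. For Aif1, a different probe set differed by 1.28 in place of 7.28. Ifitm1 and Fcer1g were the least even among them, because of HM array 2, where Ifitm1 stood at 7.60 against 4.85 and 5.85 on the other HM arrays.

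The largest falls were secreted proteins, transporters and enzymes of hepatocytes. Orm1, the acute phase protein alpha-1-acid glycoprotein, stood at 7.05, 5.30 and 6.42 on the KC arrays against 14.35, 14.37 and 14.33 on the HM arrays (-8.09 ± 0.38). Lcn2, the iron-siderophore binding lipocalin, stood at 5.53, 5.04 and 5.80 in KC monolayers against 13.58, 13.46 and 13.55 in HM (-8.08 ± 0.21). Slc2a2, the low-affinity glucose transporter of hepatocytes, stood at 4.44, 4.14 and 4.39 in KC monolayers against 12.42, 12.33 and 12.35 in HM (-8.04 ± 0.16). The HM arrays differed little for each of these genes, and the KC spread of Orm1 was far wider than that of Slc2a2. The other falls among the 15 largest lay between -8.06 and -6.72 and held Ugt2b35, Hpx (hemopexin, which binds haem), Apob, Inhca, Tm4sf4, Sorbs2, Lurap1l, Abcc2 (the canalicular exporter of conjugated bilirubin), Rbp7, Aldh1a1, Apoa1 and Fga. A second probe set of Inhca differed by only -0.99. Over all genes past 2 log2 units that have several probe sets (442), 40 had one of opposite sign and 309 had every other one at least 1 unit the same way.

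**Figure D3:**
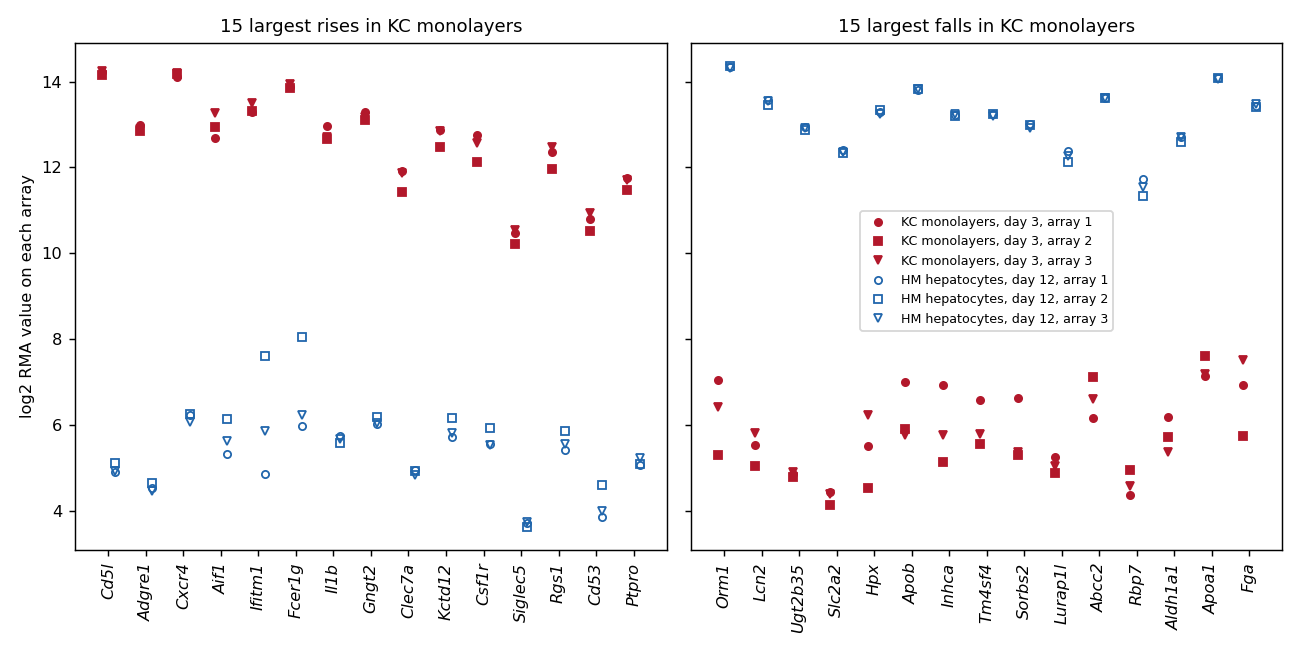
Log2 RMA value of each array (vertical) for the 15 genes with the largest rises (left) and the 15 with the largest falls (right) in KC monolayers; filled red symbols are KC arrays, open blue symbols HM arrays, and shapes mark the array number. The genes were drawn from those called and without overlap between the groups, so their separation follows from the choice. HM array 2 lies above the other HM arrays for Ifitm1 (7.60) and Fcer1g (8.04), and the KC arrays spread widest for falls such as Orm1 (5.30 to 7.05).

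RefSeq promoters (GRCr8, 250 bases before to 50 after the annotated start) were searched for short runs of letters that well-known factors bind, on both strands. The PU.1 letters AGGAAGT, bound by the factor that Spi1 encodes, were in 73 of the 384 promoters (19%) of genes at least 2 log2 units higher in KC monolayers, in 48 of 829 (5.79%) on the lower side and in 8.36% of the 11336 promoters matched to tested genes. The HNF1 letters, GTTAAT followed by any base and ATT, were in 1 promoter (0.26%) on the higher side, in 13 (1.57%) on the lower side and in 0.291% of the matched promoters. The HNF4 letters CAAAGTCCA were in none on the higher side, in 8 (0.965%) on the lower side and in 0.379% of the matched promoters. The C/EBP letters TTGCNCAA were about as frequent on either side (3.65% higher, 3.5% lower, 2.59% of the matched promoters), and so were the TATAAA letters on the gene's own strand (6.77%, 7.24% and 5.76%). These shares are descriptions without a test, none of these runs contains another, and median GC content was 55.3% on the higher side, 60% on the lower side and 60% over the matched promoters. The promoters of the 3 largest rises that hold the PU.1 letters are printed 5′ to 3′ on the gene's strand, with the match in capitals, to show where the letters lie. Cd53 (a tetraspanin of leukocytes, chr2:197087847-197088146, minus strand) has the reverse complement 46 bases before the start, Pilra (an inhibitory receptor of myeloid cells, chr12:23452447-23452746, plus strand) has the match 91 bases before it, and Bcl2a1 (a Bcl-2 family survival protein, chr8:98596556-98596855, plus strand) 214 bases before it.
Cd53: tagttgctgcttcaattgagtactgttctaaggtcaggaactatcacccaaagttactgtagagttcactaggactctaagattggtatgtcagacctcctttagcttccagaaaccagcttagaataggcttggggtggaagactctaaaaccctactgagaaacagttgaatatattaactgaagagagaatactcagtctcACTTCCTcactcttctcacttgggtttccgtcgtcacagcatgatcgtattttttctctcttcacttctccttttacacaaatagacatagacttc
Pilra: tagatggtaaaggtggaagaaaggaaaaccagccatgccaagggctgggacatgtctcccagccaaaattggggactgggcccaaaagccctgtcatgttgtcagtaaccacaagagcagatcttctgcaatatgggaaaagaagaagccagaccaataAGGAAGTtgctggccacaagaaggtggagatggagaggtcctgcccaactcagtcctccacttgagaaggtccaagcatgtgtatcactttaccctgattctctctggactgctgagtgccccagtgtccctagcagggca
Bcl2a1: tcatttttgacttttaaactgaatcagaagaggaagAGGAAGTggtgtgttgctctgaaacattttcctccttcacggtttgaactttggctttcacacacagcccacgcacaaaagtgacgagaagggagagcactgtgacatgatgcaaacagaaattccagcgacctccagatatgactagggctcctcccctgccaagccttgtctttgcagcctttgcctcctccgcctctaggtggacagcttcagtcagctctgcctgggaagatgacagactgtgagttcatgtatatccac

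Cd53 stood at 10.79, 10.51 and 10.93 on the KC arrays against 3.85, 4.59 and 3.99 on the HM arrays (6.60 ± 0.23). Pilra stood at 11.98, 11.35 and 11.53 in KC monolayers against 5.03, 5.48 and 4.95 in HM (6.47 ± 0.22). Bcl2a1 stood at 12.70, 11.98 and 12.13 in KC monolayers against 6.12, 5.99 and 5.97 in HM (6.24 ± 0.21). All 3 genes were picked for the size of their rise, so high KC and low HM values follow from the choice.

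The promoters of the 3 largest falls that hold the HNF1 letters, and of the largest fall that holds the HNF4 letters, are shown in the same way. Igfbp1 (an insulin-like growth factor binding protein that liver secretes, chr14:86261027-86261326, plus strand) has the reverse complement of the HNF1 letters 73 bases before the start, Lipc (hepatic lipase, chr8:80516236-80516535, minus strand) has the letters 15 bases before it, and Gc (the vitamin D binding protein, chr14:18916005-18916304, plus strand) 194 bases before it. Cyp3a23-3a1 (a P450 of the drug-oxidising 3A family, chr12:14398754-14399053, minus strand) has the HNF4 letters 110 bases before the start.
Igfbp1: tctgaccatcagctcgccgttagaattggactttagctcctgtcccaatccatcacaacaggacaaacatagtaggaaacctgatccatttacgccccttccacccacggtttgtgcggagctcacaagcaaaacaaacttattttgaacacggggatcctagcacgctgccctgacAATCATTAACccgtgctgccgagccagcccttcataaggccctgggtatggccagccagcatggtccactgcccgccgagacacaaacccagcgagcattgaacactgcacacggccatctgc
Lipc: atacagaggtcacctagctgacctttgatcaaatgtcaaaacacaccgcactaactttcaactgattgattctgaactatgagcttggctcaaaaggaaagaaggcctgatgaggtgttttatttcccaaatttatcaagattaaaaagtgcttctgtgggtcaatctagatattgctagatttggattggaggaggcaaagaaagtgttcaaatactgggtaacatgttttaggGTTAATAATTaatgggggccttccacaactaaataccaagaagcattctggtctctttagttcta
Gc: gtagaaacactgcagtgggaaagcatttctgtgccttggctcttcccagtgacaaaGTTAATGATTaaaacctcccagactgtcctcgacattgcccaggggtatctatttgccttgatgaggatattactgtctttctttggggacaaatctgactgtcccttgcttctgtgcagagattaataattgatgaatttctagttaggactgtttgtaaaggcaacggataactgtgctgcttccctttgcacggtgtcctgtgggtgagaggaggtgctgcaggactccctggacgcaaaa
Cyp3a23-3a1: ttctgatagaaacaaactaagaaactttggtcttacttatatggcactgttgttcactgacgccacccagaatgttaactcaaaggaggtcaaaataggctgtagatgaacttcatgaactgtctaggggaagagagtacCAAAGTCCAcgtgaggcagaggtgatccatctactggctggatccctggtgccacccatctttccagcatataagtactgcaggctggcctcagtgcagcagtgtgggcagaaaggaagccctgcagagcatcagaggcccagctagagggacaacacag

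Igfbp1 stood at 6.97, 5.87 and 6.60 on the KC arrays against 13.23, 13.19 and 13.20 on the HM arrays (-6.72 ± 0.26). Lipc stood at 6.10, 6.29 and 6.04 in KC monolayers against 12.49, 12.41 and 12.47 in HM (-6.31 ± 0.15). Gc stood at 7.91, 6.92 and 7.96 in KC monolayers against 12.68, 12.67 and 12.56 in HM (-5.04 ± 0.27), and its second probe set differed by -1.90. Cyp3a23-3a1 stood at 4.73, 5.03 and 4.18 in KC monolayers against 11.22, 11.16 and 11.20 in HM (-6.55 ± 0.22). These 4 genes were picked for the size of their fall, so high HM and low KC values follow from the choice.

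List counts from here on stand against 19% higher and 37.5% lower of all autosomal genes. Of 22 measured macrophage surface and scavenger receptors, 20 were higher in KC monolayers and 1 was lower, with a median difference of 3.95. Past those named above, the members with the largest values, picked after their values were seen, were Clec4f (5.59), a lectin of rodent KCs, Folr2 (5.05), the complement receptor C5ar1 (5.03), the mannose receptor Mrc1 (4.98) and Cx3cr1 (4.40). The efferocytosis receptors Axl (3.30) and Mertk (3.00) and the lipopolysaccharide co-receptor Cd14 (1.54) rose as well. Clec10a (0.79) was not called. Cd36, a fatty acid and oxidised lipoprotein receptor that hepatocytes also carry, went the other way. It stood at 10.53, 9.92 and 9.65 on the KC arrays against 12.75, 12.84 and 12.67 on the HM arrays (-2.72 ± 0.23).

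Fc receptors and the ITAM signalling chain below them rose in 18 of 22 measured members, with none lower and a median of 2.65. Ptprc, the leukocyte phosphatase CD45, stood at 11.86, 11.25 and 11.56 in KC monolayers against 5.68, 5.60 and 5.65 in HM (5.91 ± 0.19). The IgG receptors Fcgr1a (5.71), Fcgr3a (3.76) and the inhibitory Fcgr2b (2.76) were higher, as were the adaptors Tyrobp (5.43) and Lcp2 (5.38), the kinases Fgr (4.10), Syk (3.56) and Lyn (2.54), and the phosphatases Inpp5d (3.86) and Ptpn6 (2.48). Grap2, Tec, Pik3ap1 and Lat were not called, with values from 0.16 to 0.35.

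Toll-like receptors and the inflammasome gave 8 higher and 4 lower of 16 members (median 0.75). Tlr2, which senses bacterial lipoproteins, stood at 11.15, 10.78 and 10.71 in KC monolayers against 6.28, 6.27 and 6.38 in HM (4.57 ± 0.17). Casp1, the protease that matures interleukin-1 beta, stood at 10.14, 8.34 and 9.53 in KC monolayers against 5.20, 5.65 and 5.08 in HM (4.03 ± 0.40). Its adaptor Pycard (3.61), the lipopolysaccharide receptor Tlr4 (3.58) with its partner Ly96 (2.15), and the trafficking factor Unc93b1 (2.42) rose, and the common adaptor Myd88 stood equal (-0.02, not called). Lbp, the plasma protein that hands lipopolysaccharide to Cd14, was the large fall of the list. It stood at 6.53, 7.09 and 6.46 on the KC arrays against 12.96, 12.93 and 12.81 on the HM arrays (-6.21 ± 0.20), and Irak3, a negative regulator, was slightly lower (-0.77). The count of lower members moved between 1 and 5 when single arrays were left out.

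Among 32 cytokines and receptors, 19 were higher and 5 lower (median 1.01). Beside Il1b, Osm (oncostatin M) stood at 10.87, 10.24 and 10.81 in KC monolayers against 4.96 to 5.04 in HM (5.64 ± 0.20). Il1a (5.23), the shared receptor chain Csf2rb (4.96), Il18 (3.10), Tgfb1 (2.76), the anti-inflammatory Il10 (2.49) and the antagonist Il1rn (1.90) followed, with smaller rises of Tnf (1.74) and Il6 (1.14). The receptors of interleukin-1 and its relative interleukin-33 were lower. Il1r1 stood at 8.89, 7.69 and 8.54 in KC monolayers against 11.73, 11.77 and 11.64 in HM (-3.34 ± 0.28), and Il1rl1 at 8.91, 7.73 and 8.42 against 10.56, 10.57 and 10.25 in HM (-2.11 ± 0.28). Il1b, the ligand, and Il1r1, its receptor, thus lay on opposite sides of the comparison. Tnf receptors split too, with Tnfrsf1b higher (1.58) and Tnfrsf1a lower (-1.83).

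The 27 chemokines divided into 12 higher and 8 lower members, with a median of 0.07 that became -0.02 without KC array 3. Pf4 (platelet factor 4, also made by macrophages) stood at 12.18, 11.38 and 11.88 in KC monolayers against 6.77, 7.02 and 6.80 in HM (4.95 ± 0.22). Cxcl2, a neutrophil attractant, stood at 10.80, 9.99 and 10.98 in KC monolayers against 6.77, 6.61 and 6.69 in HM (3.90 ± 0.25). Ccl3 (3.77), Cxcl16 (2.46), Ccl6 (2.14) and Ccl4 (2.08) were higher as well. Ccl9, by contrast, stood at 7.44, 5.86 and 7.51 on the KC arrays against 13.47, 13.52 and 13.46 on the HM arrays (-6.55 ± 0.39). The interferon-induced chemokines Cxcl9 (-1.60), Cxcl11 (-1.01) and Cxcl10 (-0.41) and the epithelial Ccl20 (-1.99) were lower, and the monocyte attractant Ccl2 (-0.12) was not called.

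Antigen presentation by MHC class II was higher in 13 of 18 members and lower in 1 (median 2.68). Cd74, the invariant chain, stood at 11.49, 12.96 and 13.13 on the KC arrays against 6.36, 6.42 and 6.30 on the HM arrays (6.17 ± 0.38), with KC array 1 below the others. The class II chains RT1-Da (5.21), RT1-Ba (4.97), RT1-Db1 (3.95) and RT1-Bb (3.60), the protease Ctss (5.35) that trims the invariant chain, and the co-stimulators Cd83 (5.42), Cd86 (3.90) and Cd80 (1.96) rose. The class II master activator Ciita (0.43) and its partners Rfxank (-0.15) and Rfxap (-0.35) were not called, and Rfx5, which binds class II promoters, was lower (-1.43 ± 0.25).

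Phagocyte oxidase and antimicrobial proteins gave 7 higher and 2 lower of 12 (median 1.85). Ncf1, a cytosolic subunit of the NADPH oxidase, stood at 12.28, 12.00 and 12.01 in KC monolayers against 6.24, 6.21 and 6.31 in HM (5.84 ± 0.16), and Ptgs2, the inducible cyclooxygenase, at 9.63, 8.91 and 9.86 against 3.35, 3.60 and 3.45 in HM (5.998 ± 0.25). The oxidase partners Rac2 (5.48), Ncf4 (3.02) and Cyba (2.78) and the lysozyme Lyz2 (2.99) rose with them. The inducible nitric oxide synthase Nos2 (0.02) was not called. Both falls, Lcn2 and the protease inhibitor Slpi (-2.76 ± 0.19), are products that epithelia secrete.

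The lysosome rose in part. Of 28 lysosomal proteins, 15 were higher and 3 lower (median 0.55), and the higher count ran from 10 to 17 when single arrays were left out and was 23 after cyclic loess. Laptm5, a lysosomal membrane protein of leukocytes, stood at 12.59, 12.54 and 12.62 in KC monolayers against 7.83, 7.95 and 7.83 in HM (4.71 ± 0.15). Acp5, the tartrate-resistant acid phosphatase of macrophages and osteoclasts, stood at 12.28, 11.75 and 12.02 against 7.58, 7.99 and 7.60 in HM (4.29 ± 0.20). Psap (3.03), Ctsd (2.57) and Ctsz (2.09) followed, whereas the ubiquitous Lamp1 (-0.02), Hexa (0.06) and Gusb (0.07) were not called and the sphingomyelinase Smpd1 was lower (-1.82 ± 0.19). The vacuolar proton pump that acidifies lysosomes had 7 higher and 2 lower of 14 subunits (median 0.32). Atp6v1b2 stood at 11.61, 10.81 and 12.08 in KC monolayers against 9.40, 9.20 and 9.46 in HM (2.15 ± 0.29), and Atp6v1d was lower (-1.002 ± 0.15).

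Leukocyte adhesion molecules gave 13 higher and 2 lower of 20 (median 1.05). Itgal stood at 11.74, 10.92 and 11.29 in KC monolayers against 5.52, 5.39 and 5.45 in HM (5.87 ± 0.22). Its partner Itgb2 (5.37), the complement-receptor chains Itgam (4.58) and Itgax (4.02) and the tetraspanin Cd37 (4.73) rose, while the matrix-binding Itgb1 (-1.24) and Itga6 (-1.01) fell. A second probe set of Itgb1 differed by only -0.16. Actin regulators of leukocytes were higher in 14 of 19 members and lower in none (median 3.58). Arhgdib, known from haematopoietic cells, stood at 13.21, 12.46 and 12.87 in KC monolayers against 6.35, 6.64 and 6.26 in HM (6.43 ± 0.22). Hcls1 (5.31), Lcp1 (4.64) and Coro1a (3.97) were among the rises, and the 5 members not called were profilin (Pfn1, -0.06) and the Arp2/3 subunits Arpc1b, Arpc2, Arpc3 and Arpc5, which all cells use.

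The C1q chains C1qa (5.81), C1qb (4.64) and C1qc (4.20) rose together with C5ar1 and C3ar1 (3.82), which made 5 higher of 9 members in that list, and the complement regulators Cd55 (-1.57) and Cd46 (-0.95) and the C1q-binding mitochondrial protein C1qbp (-1.41) were lower. C1qa stood at 12.21, 11.99 and 12.15 on the KC arrays against 5.87, 6.70 and 6.35 on the HM arrays. Matrix proteases and osteoclast-type genes were higher in 12 of 18 members and lower in 3 (median 1.20). Spp1 (osteopontin) stood at 12.36, 12.32 and 12.49 in KC monolayers against 7.73, 9.83 and 8.95 in HM (3.56 ± 0.44), and Mmp12, the macrophage elastase, at 10.16, 9.70 and 9.82 against 6.05, 5.96 and 6.17 in HM (3.83 ± 0.18). Timp3, a matrix-bound inhibitor of these proteases, was lower (-2.29 ± 0.20).

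Transcription factors known from macrophages were higher in 13 of 20 members and lower in 1 (median 1.09). Tfec, a relative of Mitf, stood at 10.26, 9.38 and 10.22 in KC monolayers against 4.01, 4.62 and 4.35 in HM (5.62 ± 0.27). Irf8 stood at 11.94, 10.998 and 11.48 in KC monolayers against 6.63, 7.10 and 6.95 in HM (4.58 ± 0.25). Spic (3.61), known from iron-recycling macrophages of mice, Fli1 (3.47) and Bhlhe41 (3.02) also rose. The liver X receptor Nr1h3 (0.10), Runx1 (-0.27) and Cebpb (0.62) were not called, and Klf4 was lower, at 9.41, 8.80 and 9.26 in KC monolayers against 10.29, 10.68 and 10.52 in HM (-1.34 ± 0.20). Interferon-response genes divided into 9 higher and 7 lower of 25 (median 0.17), and after cyclic loess into 14 and 4. The neighbouring family members Ifitm1 (7.27) and Ifitm3 (-3.55) lay far apart. Ifitm3 stood at 9.23, 8.04 and 8.43 on the KC arrays against 12.13, 12.09 and 12.13 on the HM arrays.

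**Figure D4:**
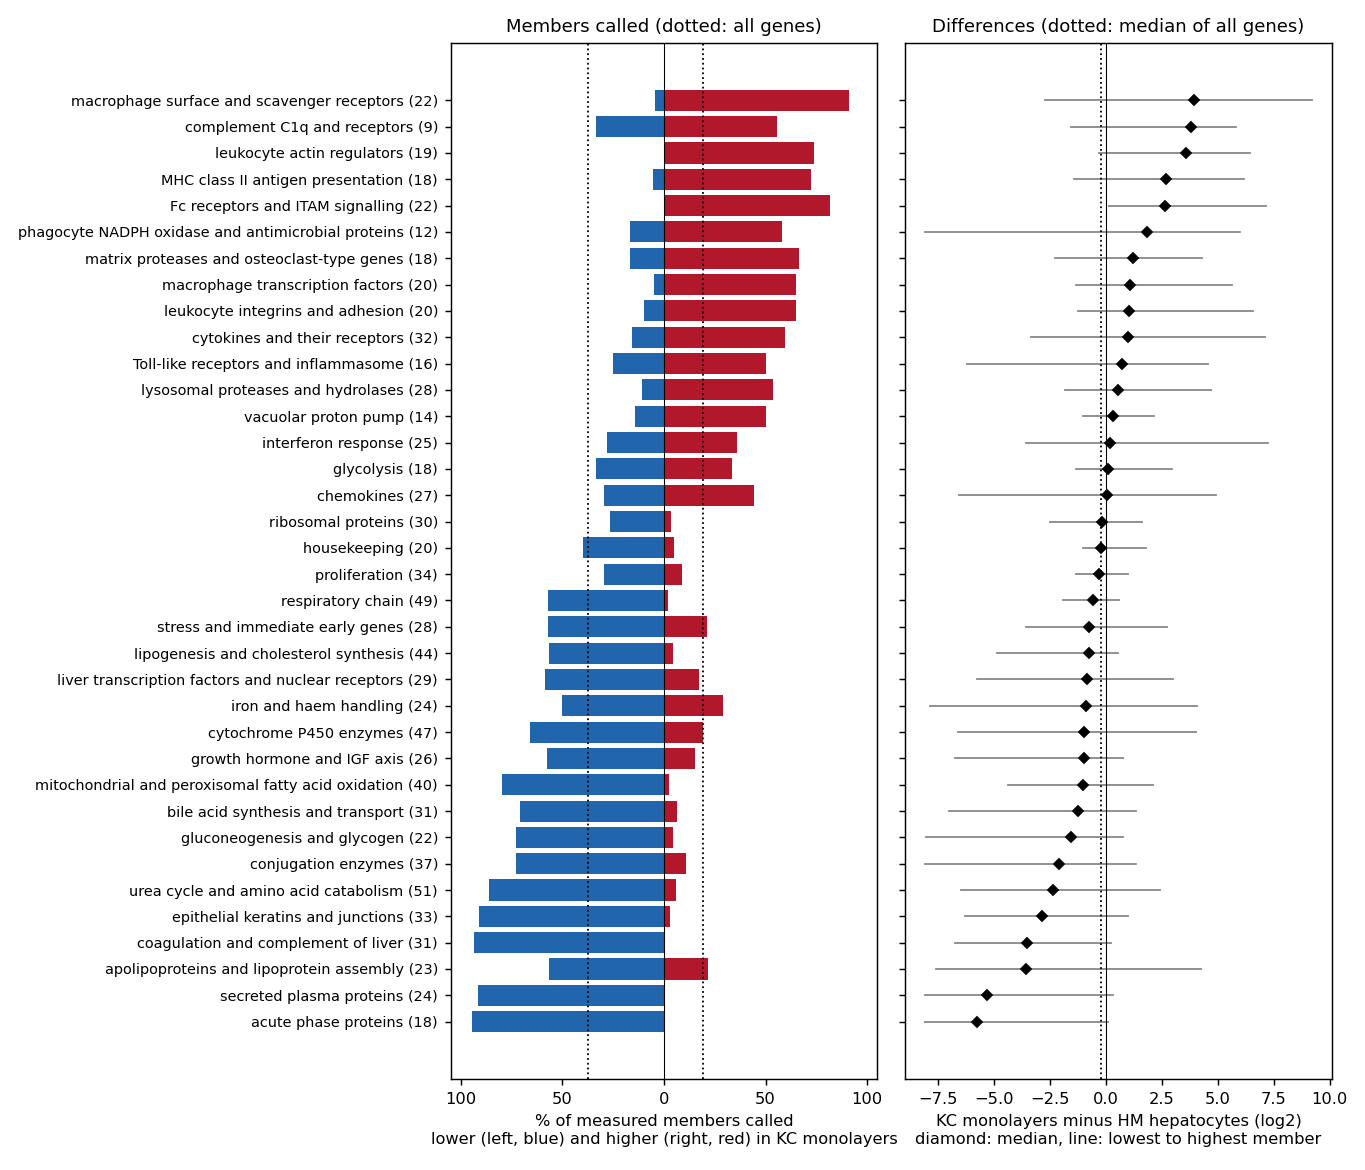
For each of 36 gene lists (measured members in brackets), the left panel gives the percent of members called higher (red, right) and lower (blue, left) in KC monolayers, with dotted lines at 19 and 37.5, the percent over all genes; the right panel gives the median (diamond) and the range (line) of the differences of KC monolayers minus HM hepatocytes (log2), with a dotted line at the median of all genes (-0.22). The medians run from 3.95 for macrophage surface receptors to -5.73 for acute phase proteins, and apolipoproteins, P450 enzymes and chemokines hold members on both sides.

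Hepatocyte secretory products were lower as a body. Of 24 secreted plasma proteins, 22 were lower and none higher (median -5.30). Hpx stood at 5.51, 4.53 and 6.22 on the KC arrays against 13.29, 13.33 and 13.26 on the HM arrays (-7.87 ± 0.36). Hp, haptoglobin, stood at 8.21, 7.27 and 7.88 in KC monolayers against 13.87, 13.74 and 13.87 in HM (-6.04 ± 0.24). Rbp4 (-6.56), Serpina1 (-6.25) and Ahsg (-5.91) were of the same order, and Serpina6 (0.34) and A1bg (0.06) were not called. The acute phase list had 17 of 18 members lower (median -5.73), from Fgl1 (-2.97) through Crp (-3.49), Hamp (-5.65) and A2m (-5.82) to Orm1, and only Socs3 (0.09) was not called. Coagulation and complement factors of the liver had 29 of 31 members lower and none higher (median -3.54). Fga, the fibrinogen alpha chain, stood at 6.92, 5.73 and 7.52 in KC monolayers against 13.44, 13.41 and 13.49 in HM (-6.72 ± 0.38), and Cfi, complement factor I, at 5.94, 5.78 and 5.10 against 12.32, 12.24 and 12.34 in HM (-6.69 ± 0.23). Prothrombin (F2, -4.94), C5 (-4.11) and C3 (-2.89) were further examples. F13a1 (-0.36) and C6 (0.25) were not called.

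Apolipoproteins and lipoprotein assembly held 13 lower and 5 higher members of 23 (median -3.58). Apob, the structural protein of very-low-density lipoprotein, stood at 6.99, 5.91 and 5.75 on the KC arrays against 13.80, 13.84 and 13.84 on the HM arrays (-7.61 ± 0.30). Apoa1 stood at 7.14, 7.62 and 7.19 in KC monolayers against 14.08, 14.09 and 14.07 in HM (-6.76 ± 0.18). The transfer protein Mttp (-4.09) and Apoc3 (-4.57) fell too. Apoe was high in both cultures and was not called (-0.18), and Apoa2 was not called either (-0.01). The higher members were the phospholipid transfer protein Pltp, at 12.81, 12.46 and 12.39 in KC monolayers against 8.23, 8.37 and 8.33 in HM (4.24 ± 0.17), lipoprotein lipase Lpl (2.19 ± 0.37), the cholesterol exporters Abca1 (1.05) and Abcg1 (0.81), and Lrp1 (0.64). Lpl stood at 8.32, 8.07 and 7.93 in KC monolayers against 5.37, 6.88 and 5.49 in HM, with HM array 2 again above its group.

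Drug-metabolising enzymes were mostly lower. Of 47 P450 members, 31 were lower and 9 higher (median -0.97). The mean level of this list was 7.04 in KC monolayers, 8.31 in HM and 9.03 in collagen sandwich hepatocytes. Cyp4f1 stood at 5.93, 5.03 and 4.79 in KC monolayers against 11.85, 11.79 and 11.86 in HM (-6.58 ± 0.28). Cyp2c22 (-5.83), Cyp2c23 (-5.23), Cyp2d2 (-3.91) and Cyp1a1 (-3.57) were other large falls, and Cyp7a1, which starts bile acid synthesis, was not called (-0.27). Cyp1b1, an extrahepatic P450, was higher, at 9.85, 9.14 and 9.95 in KC monolayers against 5.38, 5.89 and 5.58 in HM (4.03 ± 0.25), as was Cyp2s1 (2.74 ± 0.23). Conjugating enzymes gave 27 lower and 4 higher of 37 (median -2.08). Ugt2b35, a glucuronosyltransferase, stood at 4.85, 4.79 and 4.90 in KC monolayers against 12.94, 12.87 and 12.91 in HM (-8.06 ± 0.15), and Sult1b1, a sulfotransferase, at 7.08, 5.86 and 5.87 against 12.98, 12.96 and 13.003 in HM (-6.71 ± 0.31). Glutathione transferases of the mu class fell over a wide range, from Gstm7 (-1.44) to Gstm2 (-6.22). Members of these families share sequence, and a probe set of these families can also bind a close relative's transcript.

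Bile acid synthesis and transport gave 22 lower and 2 higher of 31 members (median -1.22). Abcc2 stood at 6.15, 7.11 and 6.59 on the KC arrays against 13.62, 13.63 and 13.61 on the HM arrays (-7.00 ± 0.24). Baat (-5.60), which conjugates bile acids, and the bile salt export pump Abcb11 (-4.09) were lower, and the uptake carrier Slc10a1 less so (-2.13). Akr1d1, a steroid reductase, was called higher with 0.73 on its brighter probe set, but its other probe set differed by -5.01, and averaging both turned the sign to -2.14. Its direction is therefore not settled by these arrays.

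The urea cycle and amino acid catabolism were lower in 44 of 51 members and higher in 3 (median -2.37). Cps1, which fixes ammonia, stood at 7.59, 6.88 and 7.72 in KC monolayers against 12.78, 12.88 and 12.85 in HM (-5.44 ± 0.23). Arg1, which releases urea, stood at 6.50, 6.58 and 6.59 in KC monolayers against 12.73, 12.69 and 12.66 in HM (-6.13 ± 0.15), and Tat, tyrosine aminotransferase, at 6.54, 5.58 and 5.54 against 12.35, 12.45 and 12.31 in HM (-6.48 ± 0.27). Tdo2 (-5.93), Ass1 (-5.36), Cth (-5.32) and Hpd (-5.05) followed. The exceptions were Glul, glutamine synthetase, at 13.53, 13.39 and 13.59 in KC monolayers against 10.91, 11.30 and 11.06 in HM (2.41 ± 0.17), the kynurenine hydroxylase Kmo (1.51 ± 0.22) and Mccc1 (0.86).

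Gluconeogenesis and glycogen had 16 lower and 1 higher of 22 members (median -1.54). Pck1, the cytosolic enzyme that commits carbon to glucose, stood at 8.55, 7.09 and 9.01 in KC monolayers against 13.23, 13.09 and 13.19 in HM (-4.95 ± 0.42), and Fbp1 (-4.58) and Gys2 (-3.14) fell with it. Glycolysis was divided, with 6 members higher and 6 lower of 18. Hexokinase Hk2 stood at 8.78, 7.19 and 8.37 in KC monolayers against 5.28, 4.99 and 5.20 in HM (2.96 ± 0.36), and Pfkp (2.20), the transporter Slc2a1 (2.08) and Eno2 (1.91) rose. Tpi1 (-1.34), Eno1 (-1.26), Pgam1 (-1.24) and Pfkl (-1.05) fell. The list's median of 0.09 turned to -0.04 when dim genes were left out, so it carries no direction.

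Liver transcription factors and nuclear receptors were lower in 17 of 29 members and higher in 5 (median -0.82). Onecut2 stood at 4.94, 6.46 and 6.47 in KC monolayers against 11.78, 11.67 and 11.62 in HM (-5.73 ± 0.37). Prox1 (-5.33), Foxa2 (-3.94), Onecut1 (-3.89) and the fatty acid sensor Ppara (-2.54) fell as well, and the xenobiotic receptor Nr1i3 (0.08) was not called. Cebpa, a factor that both hepatocytes and myeloid cells use, was higher, at 13.18, 13.15 and 13.33 on the KC arrays against 10.01, 10.44 and 10.23 on the HM arrays (3.00 ± 0.17), and its 4 other probe sets differed by 0.85 to 2.84.

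Fatty acid oxidation was lower in 32 of 40 members and higher in 1 (median -1.02). Slc27a2, an acyl-CoA synthetase, stood at 5.59, 6.44 and 6.08 in KC monolayers against 10.41, 10.39 and 10.38 in HM (-4.35 ± 0.22), and the peroxisomal transporter Abcd3 was lower (-3.32 ± 0.23). Bdh1, a ketone body dehydrogenase, was higher, at 9.21, 8.78 and 9.01 in KC monolayers against 6.84, 6.78 and 7.02 in HM (2.12 ± 0.17). Lipogenesis and cholesterol synthesis had 25 lower and 2 higher of 44 members (median -0.77), led by the desaturase Scd, at 7.11, 6.30 and 6.92 in KC monolayers against 11.81, 11.59 and 11.49 in HM (-4.86 ± 0.23), and the lipid droplet protein Cidec (-4.35 ± 0.24). Of the cholesterol synthesis genes in this list, picked after their values were seen, Cyp51 was higher (0.56), and Lss (0.13), Fdft1 (-0.32), Sqle (-0.37) and the regulator Srebf2 (-0.21) were not called. The growth hormone and IGF axis had 15 lower and 4 higher of 26 (median -0.98). Igfbp4 stood at 6.25, 6.49 and 6.58 in KC monolayers against 10.42, 9.73 and 10.37 in HM (-3.73 ± 0.22), the growth hormone receptor Ghr fell (-3.46), and Igf1 itself (0.07) was not called.

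Epithelial keratins and junctions were lower in 30 of 33 members and higher in 1 (median -2.83). Epcam stood at 4.88, 6.63 and 5.89 in KC monolayers against 12.05, 12.14 and 12.12 in HM (-6.30 ± 0.37), and the desmosomal cadherin Dsg2 at 6.79, 5.31 and 6.45 against 12.03, 12.16 and 11.98 in HM (-5.87 ± 0.34). Desmoplakin (Dsp, -5.79), the keratins Krt18 (-5.16) and Krt8 (-5.09) and E-cadherin (Cdh1, -3.11) were lower, and the 1 rise was Esrp1 (0.98), an epithelial splicing factor at 6.35, 7.06 and 6.89 in KC monolayers. Iron and haem handling had 7 higher and 12 lower of 24 members. Hmox1, which opens the haem ring, stood at 13.56, 13.11 and 13.27 in KC monolayers against 10.54, 10.81 and 10.37 in HM (2.74 ± 0.19). Cd163, biliverdin reductase Blvra (1.96), the transferrin receptor Tfrc (1.80), the iron exporter Slc40a1 (1.31) and the importer Slc11a2 (1.30) rose. The haem and haemoglobin carriers Hpx and Hp, hepcidin (Hamp, -5.65), Slc39a14 (-3.35) and the sensor Tfr2 (-2.93) fell.

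Some genes were measured with little difference between the cultures. The 10 brightest genes whose 95% interval lay within 0.5 of 0, out of 904 such genes, were Gosr1, B2m, Rpl5, Rps29, Pfn1, Rpl13a, Rpl22, Rps6, Rps28 and Hsp90ab1. B2m, the light chain of MHC class I, stood at 14.11, 14.00 and 14.11 in KC monolayers against 13.99, 13.94 and 13.94 in HM (0.11 ± 0.15). Against 19% higher and 37.5% lower of all genes, housekeeping genes had 1 higher and 8 lower of 20. Ribosomal proteins had 1 higher and 8 lower of 30. The medians of these lists (-0.23 for housekeeping and -0.18 for ribosomal proteins) turned to 0.17 and 0.14 after cyclic loess, so neither list carries a direction. Rpl30 (-2.49) and Rps13 (1.61) were far from the other ribosomal proteins, with Rpl30 at 5.95, 6.65 and 6.84 in KC monolayers against 9.07, 8.93 and 8.90 in HM. The respiratory chain was lower in 28 of 49 members and higher in 1 (median -0.58, and -0.13 after cyclic loess, with 20 lower and 5 higher). Leaving out single arrays moved the lower count between 20 and 42. Cyc1 stood at 9.81, 9.30 and 9.48 in KC monolayers against 11.27, 11.59 and 11.43 in HM (-1.90 ± 0.19).

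Proliferation genes had 3 higher and 10 lower of 34 (median -0.30), smaller shares than over all genes (19% and 37.5%, median -0.22). The lower count moved between 5 and 17 when single arrays were left out. Cdk1 stood at 6.71, 5.84 and 5.95 in KC monolayers against 7.12, 7.64 and 7.10 in HM (-1.12 ± 0.26), whereas Mcm2 (0.96) and Birc5 (0.98) were higher and Mki67 (0.66) was not called. Stress and immediate early genes gave 6 higher and 16 lower of 28 (median -0.76). The heat shock gene Hspa1a stood at 6.48, 6.31 and 6.21 in KC monolayers against 9.81, 10.07 and 9.83 in HM (-3.57 ± 0.16), and Fosl1 (-2.49), Egr1 (-2.23), Trib3 (-2.13) and Jun (-1.77) were lower, while Fosb (1.44), Fosl2 (1.31) and Gadd45b (1.12) were higher.

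Markers of further cell types were counted in the same way, against 19% higher and 37.5% lower of all genes. The endothelial list had 9 higher and 5 lower of 25 members (median 0.52), and its mean level was 6.77 to 6.90 on the KC arrays against 6.30 to 6.37 on the HM arrays. Tie1 (2.80), Pecam1 (2.36) and Lyve1 (1.84) rose, and Stab2 (0.10), Kdr (0.12) and Cldn5 (-0.19) were not called. T and NK lymphocyte markers had 7 higher and none lower of 20 (median 0.33). Cd4, which rat macrophages also carry, stood at 13.12, 12.72 and 12.91 in KC monolayers against 6.83, 6.74 and 6.72 in HM (6.15 ± 0.16), and Il7r at 10.65, 10.07 and 9.93 against 5.11, 4.87 and 4.96 in HM (5.24 ± 0.21). Gzmb (2.85), Lck (1.53) and Cd3e (1.14) rose less, and Cd8a (0.30), Nkg7 (0.30) and Zap70 (-0.01) were not called. B cell markers had 4 higher of 9, granulocyte and mast cell markers 7 higher of 16, and erythroid and platelet markers 3 higher of 10, with none lower in these lists. The dendritic list had 2 higher and 2 lower of 7, and the cholangiocyte list 1 higher (Spp1) and 6 lower of 11. The stellate and fibroblast list had 6 higher and 2 lower of 23, with Hgf, hepatocyte growth factor, at 9.02, 8.40 and 8.95 in KC monolayers against 5.28, 5.46 and 5.09 in HM (3.51 ± 0.21). Col1a1 (2.19) was not called, and the median of the list (0.32) turned to -0.26 without HM array 1.

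Within KC monolayers, the 10 genes with the largest SD are given as a description with no test. Wnt2 stood at 7.82, 10.54 and 10.08 on the KC arrays against 6.18, 6.002 and 6.22 on the HM arrays, and Optc at 6.55, 9.90 and 9.25 against 5.82, 6.04 and 5.84 on the HM arrays. For both genes KC array 1 was the lowest. Serpina11, at 6.09, 7.43 and 8.84 on the KC arrays, and Ugt2b, at 6.12, 3.55 and 5.77, were further examples, with HM values of 9.09 to 9.35 and of 11.66 to 11.87. The others of the 10 genes with the largest KC SD were Mfrp, Acer1, Mall, Smr3b, Krtap13-2l1 and Acr. Among the 5 defining macrophage genes the KC SD was lowest for Adgre1 (0.08) and highest for Cd163 (0.39), against a median of 0.317 over all genes.

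The comparison of the same cell types inside the 3DHLK model, which shares no array with this one, was the one most like it in the series. There the arrays labelled KC (2 arrays) go against their label, since none of the 5 defining macrophage markers was called higher in them than in the hepatocytes of that model (limma on 11 arrays). Cd163, whose antibody was used to collect those KCs, averaged 7.15 in KCs and 8.38 in hepatocytes and was lower in the KCs (adjusted p = 0.0014), as was Csf1r (-1.19). Adgre1 (5.38 in KCs and 5.97 in hepatocytes), Ptprc (6.02 in KCs and 5.61 in hepatocytes) and Cd68 (9.49 in KCs and 9.38 in hepatocytes) were not called. The difference between both comparisons was tested directly (limma on 11 arrays). It passed for 6923 genes (50.4%), with 2263 (16.5%) above and 4660 (33.9%) below 0. A positive value means that KCs exceeded hepatocytes by more in the monolayers than in the 3DHLK model. The share above 0 among those called was 32.7%, and was 54.9% after housekeeping centring and 51.3% after cyclic loess. Leaving out the KC arrays of the model in turn gave 1910 or 1893 genes above and 3567 or 3874 below 0.

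Every defining marker but Cyp2e1 (0.34 ± 0.31) passed this test. Among macrophage markers the value was 8.95 ± 0.39 for Adgre1 and 7.998 for Csf1r, and among hepatocyte markers it was -6.50 for Apoa1, -5.40 for Hnf4a and -3.71 for Alb. The largest positive values were those of Ifitm1 (11.28), Fcer1g (10.26), the cyclooxygenase Ptgs1 (9.98), Cd5l (9.82) and Clic2 (9.32). The largest negative ones were those of Lcn2 (-8.59), Hpx (-8.39), Orm1 (-7.73), Slc2a2 (-7.71) and the neuropeptide gene Npy (-7.65). Mgp (5.73) and Col3a1 (6.07), the stromal genes that varied among HM arrays and were not called between the monolayers, also passed, with means in 3DHLK hepatocytes of 13.42 for Mgp and 12.97 for Col3a1.

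The genes past 2 log2 units were also placed on a scale for each remaining group on which HM is 0 and KC monolayers are 1, as a description with no test. They were selected on the same HM and KC monolayer values that set the ends of this scale. For the 479 higher genes the median place was 0.0891 in the arrays labelled KC of the 3DHLK model. It was 0.0550 in LSECs and 0.0552 in hepatocytes of that model, 0.0258 in LSECs of the model without KCs and 0.0102 in collagen sandwich (CS) hepatocytes. Nearer to KC monolayers than to HM were 15 of these genes in 3DHLK KCs and 63 (13.2%) in 3DHLK hepatocytes. For the 1017 lower genes the median place was 0.225 in 3DHLK KCs, 0.105 in 3DHLK LSECs and 0.00744 in CS hepatocytes, and the genes nearer to KC monolayers numbered 189 (18.6%) in 3DHLK KCs and 176 (17.3%) in 3DHLK LSECs.

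**Figure D5:**
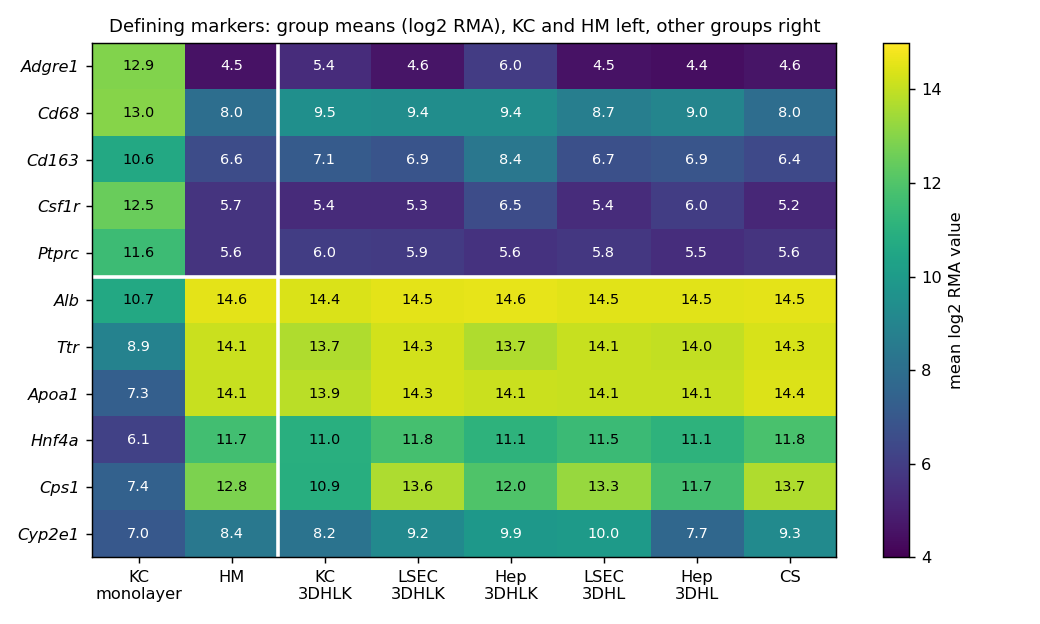
Group means (log2 RMA, colour and printed value) of 5 macrophage and 6 hepatocyte defining markers in KC monolayers, HM hepatocytes and the other 6 groups of the series. In KC monolayers Adgre1 stands at 12.91 and Hnf4a at 6.12, whereas the KCs taken from the 3DHLK model show 5.38 and 10.95, close to the hepatocyte columns.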

How the data were processed

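RNA from 6 cultures, 3 of KCs on day 3 and 3 of hepatocyte monolayers on day 12, was amplified with a whole-transcript kit per the labels and hybridised to Affymetrix rat genome expression arrays. The paper instead describes standard Affymetrix target labelling with synthesis of complementary RNA, and the sources used here do not settle which applied. The authors deposited log2 values for 23 arrays that they had made with RMA, which corrects background, normalises by quantiles and summarises probes (version not given in the sources used here). No scanner files were used here, and precision is limited by having 3 arrays a group. Among the 31099 probe sets, 57 controls were left out, 20826 named 1 gene, 436 several and 9780 none in the platform annotation, whose gene IDs matched RefSeq for 20758. Each of 14217 genes was represented by its brightest probe set, by mean over the 23 arrays, and the 447 X, 4 Y and 19 unplaced genes among them were tested but left out of the counts.

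KC monolayers and HM were compared with lmFit and eBayes of limma 3.58.1 (R 4.3.3), two-sided, with Benjamini-Hochberg adjustment over 14217 genes and a threshold of 0.05. Only the 6 arrays entered this fit, because the KC arrays vary more than the rest. The fit still pooled the spread of both groups for each gene, although the KC SD was the larger for 90.3% of genes. SEs and p-values therefore assume an equal spread in KC and HM arrays. The 3DHLK contrast used the 11 arrays of its 4 groups. Gene lists (46) were described by counts and medians, without set tests. Genes named by rule were the 15 largest rises and falls without overlap, the 2 largest called members of each list in each direction, the defining markers, the 10 brightest genes with a 95% interval within 0.5 of 0, and those with the largest SD (10 in KC, 5 in HM), and, for the 3DHLK contrast, the 5 largest each way. Other genes were picked from the lists after their values were seen. The members and lists were chosen with earlier results of these data known. Alternatives were a fit over all arrays, a block for the replicate number, averaging a gene's probe sets, a filter on dim genes (30th percentile), cyclic loess, centring on housekeeping genes, a mean-variance trend, array weights, a test against a difference of 1, and leaving out each array. Promoter sequences are from RefSeq, GRCr8.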

Additional observations from a re-analysis of the deposited data

Results flagged for a closer look

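For 10 defining markers the difference of KCs minus hepatocytes was not the same in monolayers and in the 3DHLK model, by the direct test of that difference (limma, adjusted p under 0.05 for each). The value, monolayers minus 3DHLK model, was 8.95 for Adgre1, 7.998 for Csf1r, 5.50 for Ptprc, 5.30 for Cd163 and 4.95 for Cd68. It was -6.50 for Apoa1, -5.40 for Hnf4a, -5.22 for Ttr, -4.36 for Cps1 and -3.71 for Alb. These markers were chosen to define both cell types, and the monolayer differences alone were of similar size, such as 8.37 for Adgre1 and -6.76 for Apoa1. For Apoa1 the difference within the 3DHLK model was -0.26 and was not called. Within the 3DHLK model, the arrays labelled KC minus the hepatocyte arrays gave -1.23 for Cd163 and -1.19 for Csf1r, both called lower, and -0.59 for Adgre1, 0.10 for Cd68 and 0.41 for Ptprc, none of which was called. The part of the magnetic separation of cells in these values was not tested.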

How the results depend on the processing

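The count of genes higher in KC monolayers, 2612, was 1543 without genes under the 30th percentile, and 684 higher and 1432 lower genes passed a test against a difference of 1. Leaving out single arrays gave 1934 to 3318 higher and 4154 to 6092 lower genes. The counts past 2 log2 units, 479 and 1017, were 634 and 767 after cyclic loess. For the difference with the 3DHLK model, housekeeping centring gave 3296 above and 2705 below 0, cyclic loess 3451 and 3283, and leaving out single arrays 1893 to 2569 and 3567 to 5472. The median of all genes, -0.22 as deposited, was -0.12 after housekeeping centring and 9e-05 after cyclic loess, and the cause of these shifts was not tested. Values that changed sign were those of Akr1d1 (-2.14 with the mean of all probe sets) and the medians of glycolysis (-0.0402 without dim genes), housekeeping (0.17, cyclic loess), ribosomal proteins (0.14, cyclic loess), dendritic markers (0.0658 with housekeeping centring, and -0.113 to 0.183 with single arrays left out, above 0 without HM array 3 or KC array 1), stellate and fibroblast markers (-0.262 without HM array 1, up to 0.454 without other arrays) and chemokines (-0.0175 without KC array 3, up to 0.0946 without others). Across alternatives and named genes, 2431 values kept their direction and side of the threshold, 89 lost the call and 6 gained it. Of the list medians, 578 stayed within the spread of the list means between arrays, 104 moved past it and 8 changed sign. List counts stayed similar in 1194 cases, and were clearly smaller in 138 and larger in 48. Same-numbered KC and HM arrays did not deviate together (correlations of -0.144, -0.158 and 0.018), and with the replicate number as a block 2599 genes were higher and 5003 lower. Probe sets near background give no detection call in these files, so a low value is no sign of absence.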

Other observations

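Genes of prostaglandin and leukotriene synthesis, picked after the values were seen and with no list of their own, lay on both sides of the comparison. Pla2g4a, the phospholipase that frees arachidonic acid, stood at 11.86, 11.18 and 11.76 in KC monolayers against 6.05, 6.26 and 6.25 in HM (5.41 ± 0.21). Ptgs1, the constitutive cyclooxygenase, stood at 11.82, 11.33 and 11.43 in KC monolayers against 5.30, 6.59 and 6.14 in HM (5.52 ± 0.31), and the inducible Ptgs2 differed by 5.998. Downstream, Hpgds, which makes prostaglandin D, stood at 11.25, 10.49 and 10.61 in KC monolayers against 5.36, 5.41 and 5.54 in HM (5.35 ± 0.22), and the thromboxane synthase Tbxas1 differed by 3.25 ± 0.20. The microsomal prostaglandin E synthase Ptges (0.02) and the lipoxygenases Alox5 (0.86) and Alox15 (0.33) were not called, and Ptges3 (-1.40) and Ltc4s (-0.59) were lower.

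Apobec1, the deaminase that edits the Apob message, stood at 12.88, 12.42 and 12.87 in KC monolayers against 6.40, 6.45 and 5.81 in HM (6.50 ± 0.23), while Apob itself was lower by 7.61 units in KC monolayers. Prdm1, a repressor known from plasma cells and macrophages, stood at 11.34, 10.85 and 10.76 in KC monolayers against 4.71, 4.50 and 4.63 in HM (6.37 ± 0.19). Among genes lower in KC monolayers were 2 known from neurons. Npy stood at 4.64, 5.46 and 5.58 in KC monolayers against 11.86, 11.66 and 11.68 in HM (-6.51 ± 0.25), and Nefl, a neurofilament chain, at 5.74, 5.96 and 5.84 against 11.88, 11.77 and 11.77 in HM (-5.96 ± 0.15). On the X chromosome, which is outside the counts above, 61 of 447 genes were higher (13.6%) and 160 lower (35.8%) in KC monolayers, against 19% and 37.5% of autosomal genes.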
